A study of Homo sapiens with 11 samples.

Results

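The genes described here act at the G1/S transition and in DNA replication: 50 genes for the replicative helicase, origin licensing, the replication fork, nucleotide supply, chromatin behind the fork, cyclin E and the E2F factors. Each was read from the array probe set whose annotation names that gene alone, and each of the 50 had a probe set of its own among the 22395 genes that did. The samples were MDA-MB-468 cells, an epithelial breast cancer line grown from a pleural effusion, exposed for 24 h to TNF (40 ng/ml) plus apigenin (40 µM), to TNF alone, to apigenin alone, or to neither. TNF is an inflammatory cytokine, and apigenin is a flavone found in parsley and celery. RNA of 3 TNF plus apigenin, 3 TNF, 2 apigenin and 3 control samples was hybridised to Human Gene 2.1 ST arrays, 1 array a sample. No group carries a genetic change relative to the others, and all shared 1 growth medium. The labels do not say whether samples of a group came from separate cultures, so each p-value reflects array-to-array spread alone, and that spread may be technical.

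Cells prepare for S phase by loading the MCM helicase onto origins during G1, a step called licensing. Cyclin E and its kinase, with other kinases, then turn the loaded helicase into an active fork by recruiting CDC45 and the GINS complex, and primase, polymerases, the PCNA clamp and its loader copy the strands. Most of these genes are transcribed under E2F factors, which the retinoblastoma protein holds back in cells that have it. MDA-MB-468 is known to lack that protein, and the RB1 probe set lay between 1.56 and 2.01 on all 11 arrays, under the median of 2.53 over all probe sets. In bulk samples, fewer cells in S phase and less RNA per cell cannot be told apart.

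Promoters of 4 members that passed a test below and whose windows held an E2F motif are shown first, because E2F factors bind near the start of many of these genes. RFC4, RFC5, FEN1, CHAF1A, PRIM2 and CCNE1, which also passed, held no such motif in their windows. The windows run from 250 bases before to 50 bases after the annotated start (RefSeq, GRCh38.p14), 5′ to 3′ along the gene. Capitals mark the letters TTTCCCGC, TTTCGCGC, TTTGCCGC or TTTGGCGC on either strand, 4 spellings of the E2F motif. The CDC6 window is chr17:40287629-40287928 (plus strand), the DTL window chr1:212035498-212035797 (plus strand), the MCM6 window chr2:135876394-135876693 (minus strand) and the UHRF1 window chr19:4909251-4909550 (plus strand), the earliest listed of its 3 windows that holds a match.
CDC6: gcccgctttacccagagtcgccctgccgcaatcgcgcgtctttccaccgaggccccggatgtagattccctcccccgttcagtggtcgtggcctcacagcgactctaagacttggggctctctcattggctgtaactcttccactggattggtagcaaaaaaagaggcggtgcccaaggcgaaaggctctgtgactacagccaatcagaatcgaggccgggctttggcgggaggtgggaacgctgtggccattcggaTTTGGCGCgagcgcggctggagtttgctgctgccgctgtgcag
DTL: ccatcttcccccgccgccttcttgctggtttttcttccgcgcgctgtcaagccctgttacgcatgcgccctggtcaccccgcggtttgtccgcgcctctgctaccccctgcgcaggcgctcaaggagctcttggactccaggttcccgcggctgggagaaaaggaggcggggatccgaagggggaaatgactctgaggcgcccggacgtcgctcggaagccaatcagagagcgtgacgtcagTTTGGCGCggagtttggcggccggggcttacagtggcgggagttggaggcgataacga
MCM6: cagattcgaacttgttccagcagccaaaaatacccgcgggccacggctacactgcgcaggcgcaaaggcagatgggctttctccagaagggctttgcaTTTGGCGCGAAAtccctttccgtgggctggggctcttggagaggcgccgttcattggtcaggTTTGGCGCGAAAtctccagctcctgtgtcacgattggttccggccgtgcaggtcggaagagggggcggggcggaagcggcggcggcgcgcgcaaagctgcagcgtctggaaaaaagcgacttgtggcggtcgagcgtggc
UHRF1: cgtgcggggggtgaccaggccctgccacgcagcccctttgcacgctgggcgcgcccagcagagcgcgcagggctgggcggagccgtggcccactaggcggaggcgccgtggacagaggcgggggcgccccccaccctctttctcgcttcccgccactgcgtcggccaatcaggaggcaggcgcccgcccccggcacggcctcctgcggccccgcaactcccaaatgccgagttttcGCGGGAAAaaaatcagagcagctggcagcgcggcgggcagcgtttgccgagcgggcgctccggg
The match in CDC6 began at base 8 and that in DTL at base -8, counted from the start as base 1 with no base 0. MCM6 held 4 matches in 2 overlapping pairs, beginning at -152 and -148 and at -90 and -86, and UHRF1 held 1 at -14 on the opposite strand. Of the 43 members with a window, 25 (58.1%) held such letters in at least 1 window, against 1090 of 27305 genes (3.99%). By window the count was 26 of 57 (45.6%), against 3.31% of all 35116 windows. Of all windows, 1.63% held TTTCCCGC, 0.515% TTTCGCGC, 0.607% TTTGCCGC and 0.652% TTTGGCGC. No window was used for MCM4, MCM5, GINS4, DSCC1, POLD3, CCNE2 and E2F8. A match is a run of letters and no measure of binding.

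The arrays differed in scale, so the counts and medians of each comparison are given on the deposited values and after quantile normalization, which gives every array the same distribution. The median over all tested genes was 3.89 on apigenin 1, 4.16 on apigenin 2 and 4.08 to 4.32 on the other 9 arrays, and the interquartile range was 2.4 on apigenin 1 and at least 2.63 on the rest. Correlations within a group were 0.969 to 0.987, lowest for the apigenin pair. All 6 epithelial and basal markers measured lay above 2.53 on every array, while PTPRC, CD3E, CD163, DCN and VWF did so on none. Of the same marker lists for other cell types, CD68 (4.67 to 6), CSF1R (3.92 to 4.57), COL1A1 (3.1 to 3.56) and KDR (2.68 to 4.62) lay above it on 11 arrays, CDH5 on 10 and CD3D on 1. The mean of the 3 endothelial markers measured (CDH5, VWF and KDR) was 2.74 to 2.94 with TNF plus apigenin, 3.33 to 3.61 with TNF, 2.25 to 2.45 with apigenin and 3.09 to 3.32 in control, and its part in the results was not tested. CCL2, a chemokine gene induced by TNF, was 5.88 log2 units higher with TNF than in control (adjusted p = 2.79e-08, limma). CYP1A1, a target of the aryl hydrocarbon receptor, was 1.73 higher with apigenin than in control (adjusted p = 0.00236, limma), but its change was -0.02 for TNF plus apigenin against TNF (adjusted p = 0.992).

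After quantile normalization the replication genes stood highest in the cells that received both agents. Relative to the control means, the median over the 50 members was 0.13, 0.28 and 0.28 on the 3 TNF plus apigenin arrays, -0.07, -0.06 and -0.03 on the TNF arrays, 0.08 and 0.11 on the apigenin arrays, and 0.01, -0.06 and 0.02 on the control arrays. All TNF plus apigenin arrays lay above all other arrays on that scale, but the lowest of them, at 0.13, was close to the apigenin array at 0.11. Against apigenin alone no member passed after normalization, and the median change was 0.09 over the members and 0.02 over all genes. As deposited, the same medians were 0.23, 0.35 and -0.01 with TNF plus apigenin, -0.08, 0.02 and -0.20 with TNF, -0.38 and 0.04 with apigenin, and 0.09, -0.12 and 0.04 in control, so that array 3 of TNF plus apigenin lay within the range of the rest. The median over all genes was -0.15 on that array and -0.33 on apigenin 1, against -0.08 to 0.05 on the control arrays.

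**Figure D1:**
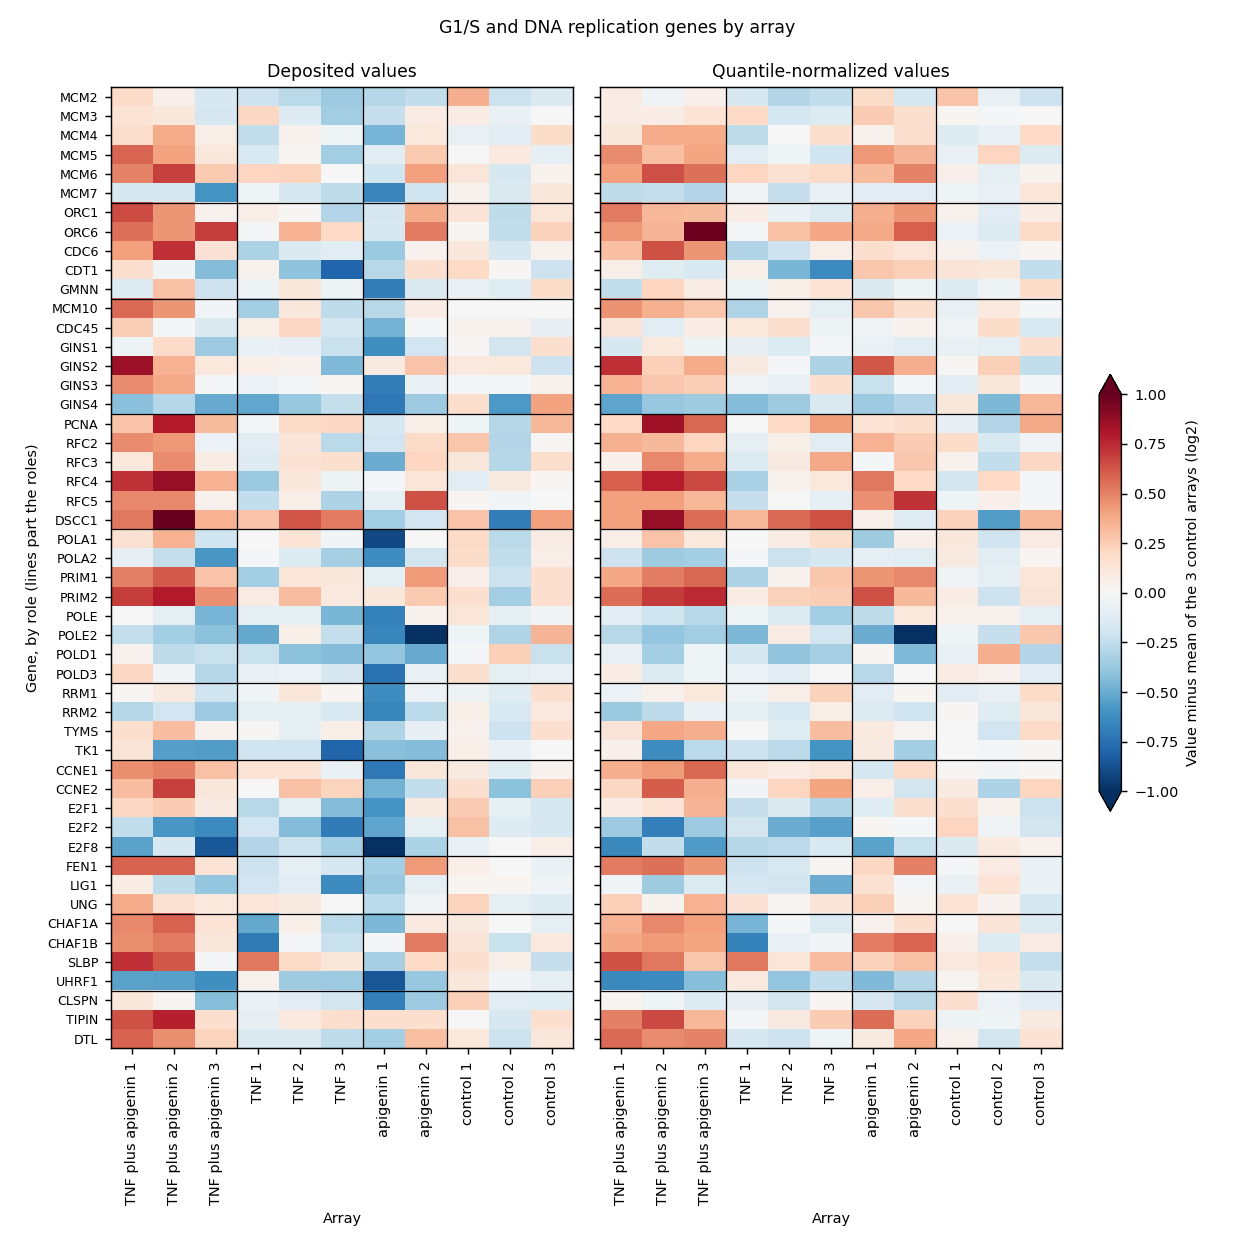
Heat map of the 50 genes by array, as the log2 value minus the mean of the 3 control arrays, on deposited values (left) and after quantile normalization (right), with horizontal lines between the roles in the order of the text. Most rows of the clamp loaders, primase and licensing genes are red across the 3 TNF plus apigenin arrays, while the column of apigenin 1 is blue in the deposited panel and mixed after normalization.

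With TNF plus apigenin, DTL, FEN1, RFC4, CDC6, CHAF1A and RFC5 rose relative to TNF alone after quantile normalization, by 0.49 to 0.74 on the log2 scale. These 6 of the 50 genes passed the test across all genes (limma, adjusted p under 0.05), where 1.1% of all 15832 genes passed in the same direction. No member was called lower, where 2.12% of all genes were, although 12 members had a change below 0. The median change was 0.21 over the members and -0.02 over all genes. On the deposited values no member passed, where 1.07% of all 15865 genes did in either direction. There the median was 0.20, against 0.02 over all genes, the smallest adjusted p was 0.0724 for RFC4, and 14 members were higher and 0 lower at an unadjusted p under 0.05 (all genes: 5.93% and 5.2%). The deposited change was above 0 for 40 of the 50, against 52.4% of all genes, and 17 had every TNF plus apigenin array above every TNF array (8.62%), while 2 had every one below (7.05%). After normalization these counts were 38 above 0 (47.3% of all genes), 20 not overlapping and higher (10.9%) and 2 lower (13.7%), with 18 higher (7.57%) and 1 lower (9.26%) at an unadjusted p under 0.05. The 5 highest deposited changes were RFC4 at 0.75, CHAF1B at 0.68, CHAF1A at 0.64, CDC6 at 0.62 and DTL at 0.61. The 5 lowest were UHRF1 at -0.34, E2F8 at -0.23, RRM2 at -0.17, MCM7 at -0.15 and POLA2 at -0.14, none of which passed. The calls depended on few arrays: on quantile-normalized values 0 members were called without TNF plus apigenin 2, TNF plus apigenin 3 or TNF 1, 1 without TNF plus apigenin 1 or TNF 2, and 3 without control 1. Calls over all genes moved too: 2.66% of all genes were called without control 1, against 3.22% with all arrays. The all-gene shares for the other fits are not given here, so these losses are not particular to the members.

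**Figure D2:**
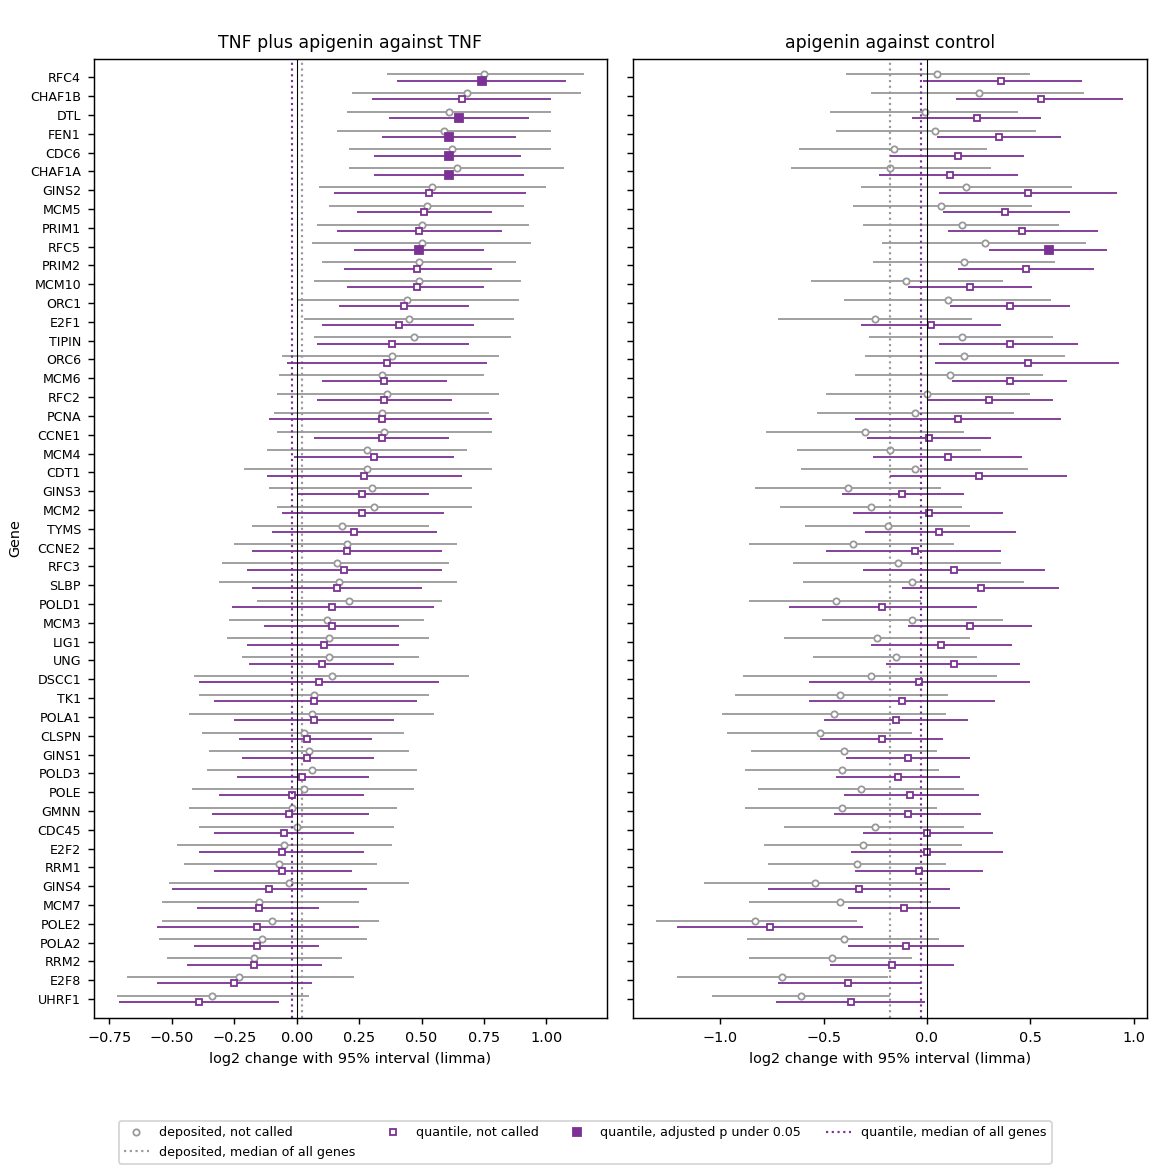
Log2 change of each gene with its 95% interval (limma) for TNF plus apigenin against TNF (left) and for apigenin against control (right), on deposited values (grey circles) and after quantile normalization (purple squares, filled where called). Genes run from RFC4 at 0.74 to UHRF1 at -0.39 in the left panel after normalization, and the dotted lines mark the median of all genes.

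Against control cells, 6 of the 50 members passed higher and 1 lower after quantile normalization. MCM6, PRIM2, RFC4, FEN1, DTL and CCNE1 rose by 0.45 to 0.68, where 3.41% of all genes were called higher. UHRF1 fell by 0.56, and this 1 call of 50 was not above the 4.38% of all genes called lower. The median change was 0.28 over the members and -0.02 over all genes, and at an unadjusted p under 0.05 there were 23 members higher (all genes: 11%) and 6 lower (all genes: 11.7%). On the deposited values no member passed, where 1.04% of all genes were called higher and 1.78% lower (2.82% together). The smallest adjusted p was 0.078, for PRIM2, and 11 members were higher (7.15% of all genes) and 3 lower (8.79%) at an unadjusted p under 0.05. The change was above 0 for 32 members (46.3% of all genes), and the arrays did not overlap for 12 higher members (8.69%) and 5 lower ones (11.4%). After normalization 34 changes were above 0 (47.5%), and the arrays did not overlap for 22 higher members (14.4%) and 7 lower ones (15.7%). The highest deposited changes were 0.65 for RFC4 and PRIM2, 0.62 for DSCC1, 0.56 for ORC6 and 0.53 for TIPIN. The lowest were -0.56 for UHRF1, -0.51 for E2F8, -0.49 for E2F2, -0.40 for GINS4 and -0.33 for TK1. On quantile-normalized values, 0 members were called without TNF plus apigenin 2 or TNF plus apigenin 3, 2 without control 1, 3 without control 3 or TNF plus apigenin 1, and 4 without control 2. Over all genes, 3.85% were called without control 1 and 4.55% without control 2, against 7.79% with all arrays.

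With apigenin alone, changes from control ran from -0.83 to 0.28 on deposited values. RFC5 was 0.59 higher than in control after quantile normalization (adjusted p = 0.0332, limma), where 0.922% of all genes were called higher, and it was the only member called. It remained called without TNF 1, TNF 2 or TNF plus apigenin 1 and was not called in the other 8 of the 11 fits that left out 1 array, with adjusted p up to 0.136. On the deposited values no member passed, where 3.66% of all genes did, and 7 members were lower at an unadjusted p under 0.05 (17.5% of all genes) and 0 higher (2.02%). The change was above 0 for 13 members (27.7% of all genes), and the apigenin arrays lay below all control arrays for 13 members (26.9%) and above them for 0 (4.69%). Quantile normalization turned these counts round: 12 members were higher (7.38% of all genes) and 3 lower (12.2%) at an unadjusted p under 0.05, and 31 changes were above 0 (46.2%). The apigenin arrays then lay above all control arrays for 17 members (14.7%) and below them for 6 (19.8%). The lowest deposited changes were POLE2 at -0.83 (adjusted p = 0.0595), E2F8 at -0.70, UHRF1 at -0.61, GINS4 at -0.54 and CLSPN at -0.52, and the highest were RFC5 at 0.28, CHAF1B at 0.25, GINS2 at 0.19, and ORC6 and PRIM2 at 0.18. The median over members was -0.21 on deposited values, beside -0.18 over all genes, and 0.07 after normalization, beside -0.03 over all genes. Without apigenin 1 the deposited median was 0.04, and without apigenin 2 it was -0.38. Leaving out control 2 brought 2 members under the threshold, POLE2 at -0.98 and GINS4 at -0.83. In that fit 636 of all 15865 genes (4.01%) were called, 615 of them lower. Without apigenin 2, E2F8 was at -1.07 and UHRF1 at -0.85. In the fits without an apigenin array the lone array left was assumed to vary like the other groups.

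With TNF alone, no member passed on either set of values, where 0.7% of all genes did on deposited values and 1.17% after normalization. At an unadjusted p under 0.05, E2F2 was lower on deposited values (4.59% of all genes lower) and 0 members were higher (2.82%), and after normalization DSCC1 was higher (5.2% of all genes) and E2F2 lower (5.31%). The change was above 0 for 15 members on deposited values (41.6% of all genes), and the TNF arrays lay above all control arrays for 0 members (4.62%) and below them for 6 (8.72%). After normalization 18 changes were above 0 (49.1%), with 3 members above all control arrays (8.74%) and 4 below (7.82%). The median change was -0.11 on deposited values (all genes: -0.04) and -0.07 after normalization (all genes: -0.01). The lowest deposited changes were E2F2 at -0.44 (95% interval -0.87 to -0.01), TK1 at -0.40, CDT1 at -0.38, GINS4 at -0.37 and POLD1 at -0.35. The highest were DSCC1 at 0.47 (95% interval -0.08 to 1.03), SLBP at 0.27, ORC6 at 0.18, CCNE2 at 0.17 and PRIM2 at 0.16.

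Between cells with both agents and cells with apigenin alone, no member passed on either set of values, where 0.574% of all genes did on deposited values (0.529% higher and 0.0441% lower) and 0.606% after normalization. At an unadjusted p under 0.05, 11 members were higher on deposited values (14.1% of all genes) and 0 lower (1.65%), and after normalization 4 were higher (8.62%) and 1 lower (6.32%). The deposited change was above 0 for 48 members (70.9% of all genes), and 14 did not overlap and were higher (20.9%), while 0 were lower (4.79%). After normalization 33 changes were above 0 (52.7%), with 14 members not overlapping and higher (18.1%) and 8 lower (14.7%). The highest deposited changes were DSCC1 at 0.89, CCNE2 at 0.73, CCNE1 at 0.72, GINS3 at 0.66 and RFC4 at 0.59, and the lowest were E2F2 at -0.18, CDT1 at -0.04, LIG1 and UHRF1 at 0.05, and RFC5 at 0.06. The median was 0.36 on deposited values (all genes: 0.16) and 0.09 after normalization (all genes: 0.02). Without apigenin 1 the deposited median was 0.10. Without apigenin 2 it was 0.54, with CCNE1 at 1.14 and GINS3 at 0.97. The interaction, which is the apigenin effect with TNF minus the apigenin effect without it, passed for no member on either set of values, where 0.0252% of all genes passed on deposited values (0.0126% in each direction) and 0.0442% after normalization. At an unadjusted p under 0.05 it was positive for 9 members on deposited values (7.14% of all genes) and negative for 0 (1.02%), and positive for 3 after normalization (4.05%). The highest deposited interactions were CHAF1A at 0.82, CDC6 at 0.78, POLE2 at 0.73, and RFC4 and E2F1 at 0.70, and the lowest were MCM3 at 0.19, ORC6 at 0.20, RFC5 at 0.22, and MCM6 and SLBP at 0.23. Its median was 0.39 on deposited values (all genes: 0.23) and 0.12 after normalization (all genes: 0.02), and without apigenin 1 the deposited median was 0.18.

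The 6 subunits of the replicative helicase, which unwinds the template, held 1 call, MCM6 against control after quantile normalization. MCM6 had log2 values after quantile normalization of 7.48, 7.71 and 7.62 with TNF plus apigenin, 7.28, 7.22 and 7.26 with TNF, 7.38 and 7.56 with apigenin and 7.12, 6.98 and 7.10 in control. All 3 TNF plus apigenin arrays lay above the TNF and control arrays but overlapped the apigenin pair. As deposited, MCM6 was at 7.64, 7.83 and 7.41 with TNF plus apigenin, 7.36, 7.37 and 7.14 with TNF, 6.95 and 7.56 with apigenin and 7.27, 6.99 and 7.18 in control, with apigenin 1 the lowest array. Its change from control was 0.54 ± 0.11 after normalization (SE, adjusted p = 0.0164, limma), or 1.45-fold, and it passed in 8 of the 11 fits that left out 1 array. Against TNF alone MCM6 stood 0.35 higher (adjusted p = 0.127). MCM5 had the highest change of the 6 against TNF, at 0.51 after normalization (adjusted p = 0.0505) and 0.52 on deposited values (adjusted p = 0.254). MCM2, MCM3 and MCM4 had changes of 0.26, 0.14 and 0.31 in that comparison after normalization. MCM7 was at -0.15 against TNF and -0.26 against control (adjusted p = 0.543 and 0.183), with all TNF plus apigenin arrays below all control arrays on both sets of values.

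Of the licensing genes, CDC6 passed against TNF. CDC6 helps the origin recognition complex load the helicase, together with CDT1, and geminin (GMNN) inhibits CDT1. CDC6 had 6.73, 7.07 and 6.87 with TNF plus apigenin, 6.13, 6.22 and 6.50 with TNF, 6.60 and 6.55 with apigenin and 6.47, 6.37 and 6.45 in control after normalization. Its TNF plus apigenin arrays lay above all other arrays. Deposited values of CDC6 were 6.91, 7.23 and 6.65 with TNF plus apigenin, 6.19, 6.36 and 6.39 with TNF, 6.13 and 6.55 with apigenin and 6.62, 6.34 and 6.55 in control, again with the TNF plus apigenin arrays above all others. The difference from TNF was 0.61 ± 0.13 after normalization (SE, adjusted p = 0.0326, limma), a fold of 1.52, and 0.62 ± 0.19 on deposited values (adjusted p = 0.174). It passed in 5 of the 11 fits that left out 1 array. ORC1 and ORC6, subunits of the origin recognition complex, stood 0.43 and 0.36 above TNF after normalization (adjusted p = 0.0762 and 0.355), and CDT1 0.27 above it (adjusted p = 0.491). GMNN differed by -0.03 from TNF and 0.02 from control, with 95% intervals of -0.34 to 0.29 and -0.30 to 0.33.

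No helicase activation gene passed. MCM10, which acts at the onset of unwinding, stood 0.48 above TNF after normalization (adjusted p = 0.0649), with all its TNF plus apigenin arrays above all TNF arrays, and 0.49 above it on deposited values (adjusted p = 0.344), where the groups overlapped. The 4 GINS subunits form 1 complex with each other. Against TNF, GINS2 was at 0.53 and GINS3 at 0.26 after normalization, while GINS1 was at 0.04 and GINS4 at -0.11 (adjusted p = 0.137, 0.299, 0.906 and 0.833). CDC45, their partner in the active helicase, was at -0.05 (adjusted p = 0.907). The GINS4 control arrays were spread widely, at 5.10, 4.35 and 5.33 on deposited values, and control 2 lay below all 3 TNF arrays.

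Of the clamp and clamp loader genes, RFC4 and RFC5 passed after quantile normalization, and none passed on deposited values. RFC2, RFC3, RFC4 and RFC5 are small subunits of replication factor C, which opens the PCNA ring and places it on DNA. RFC4 had 6.58, 6.77 and 6.64 with TNF plus apigenin, 5.66, 6.02 and 6.09 with TNF, 6.51 and 6.18 with apigenin and 5.80, 6.18 and 5.97 in control after normalization. Deposited values of RFC4 were 6.77, 6.92 and 6.40 with TNF plus apigenin, 5.68, 6.16 and 6.0 with TNF, 6.04 and 6.17 with apigenin and 5.94, 6.14 and 6.07 in control. On both sets of values the TNF plus apigenin arrays lay above all others. RFC4 was 0.74 ± 0.16 higher than with TNF (SE, adjusted p = 0.0267, limma) and 0.68 ± 0.16 higher than in control (adjusted p = 0.0238) after normalization, or 1.67-fold and 1.6-fold. Of the 11 fits with 1 array left out, 6 kept the call against TNF and 7 the call against control. RFC5 differed in pattern. It had 7.13, 7.13 and 7.05 with TNF plus apigenin, 6.49, 6.72 and 6.62 with TNF, 7.18 and 7.44 with apigenin and 6.68, 6.77 and 6.71 in control after normalization, so that the apigenin pair stood highest and TNF plus apigenin next. As deposited, RFC5 had 7.29, 7.29 and 6.85 with TNF plus apigenin, 6.56, 6.87 and 6.50 with TNF, 6.72 and 7.44 with apigenin and 6.83, 6.78 and 6.81 in control, and there apigenin 1 lay below the control arrays. Its change against TNF was 0.49 ± 0.12 after normalization (adjusted p = 0.0465), a call held in 2 of the 11 fits, and -0.21 against apigenin alone (adjusted p = 0.48). RFC2 and RFC3 stood 0.35 and 0.19 above TNF (adjusted p = 0.159 and 0.672), and PCNA 0.34 above it (adjusted p = 0.452). DSCC1, a subunit of an alternative clamp loader that acts in cohesion between sister chromatids, had the highest change with TNF alone, 0.51 after normalization (adjusted p = 0.435). Its control arrays were at 5.22, 4.24 and 5.34 on deposited values, with control 2 lowest of all 11 arrays.

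Primase and polymerase alpha start each new strand together, and PRIM2 alone of their 4 subunits passed, after quantile normalization. PRIM2, the large primase subunit, had 6.56, 6.70 and 6.75 with TNF plus apigenin, 6.08, 6.23 and 6.25 with TNF, 6.64 and 6.33 with apigenin and 6.08, 5.80 and 6.13 in control after normalization. Its values were 6.75, 6.85 and 6.52 with TNF plus apigenin, 6.14, 6.37 and 6.16 with TNF, 6.17 and 6.32 with apigenin and 6.23, 5.72 and 6.23 in control on the deposited scale. TNF plus apigenin lay above TNF and control on both sets of values. PRIM2 was 0.67 ± 0.13 higher than in control after normalization (SE, adjusted p = 0.0129, limma), or 1.59-fold, and this call held in 9 of the 11 fits, the most of any member's. PRIM1, the catalytic primase subunit, stood 0.49 above control (adjusted p = 0.0681). POLA1 and POLA2, of the polymerase itself, were at 0.15 and -0.30 against control (adjusted p = 0.595 and 0.147).

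POLE2, an accessory subunit of the leading-strand polymerase epsilon, was the dimmest member. It had 3.54, 3.44 and 3.37 with TNF plus apigenin, 3.27, 3.84 and 3.54 with TNF, 3.13 and 2.78 with apigenin and 3.74, 3.48 and 4.12 in control on deposited values, close to the 2.53 floor with apigenin. Both apigenin arrays lay below all other arrays. The change for apigenin against control was -0.83 ± 0.23 on deposited values (SE, adjusted p = 0.0595, limma) and -0.76 ± 0.21 after normalization (adjusted p = 0.066). POLE, the catalytic subunit, was at -0.32 and -0.08 on the same scales (adjusted p = 0.484 and 0.819). Of the polymerase delta subunits, POLD1 was at -0.44 and -0.22 for apigenin against control and POLD3 at -0.41 and -0.14, and none of these passed.

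The nucleotide supply genes showed no call in any comparison on either set of values. RRM1 and RRM2 encode the subunits of ribonucleotide reductase, which makes deoxynucleotides. For TNF plus apigenin against control they were at 0.03 and -0.23 after normalization, with 95% intervals of -0.25 to 0.31 and -0.50 to 0.04. TYMS, thymidylate synthase, was at 0.29 (adjusted p = 0.279). TK1, which salvages thymidine, was at -0.28 (adjusted p = 0.406). TK1 with TNF was at 7.26, 7.26 and 6.66 on deposited values, against 7.53, 7.39 and 7.46 in control, and the groups did not overlap (8.72% of all genes were below in this way).

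Of the cyclin E and E2F genes, CCNE1 passed against control after quantile normalization. None passed on deposited values, where the smallest adjusted p (limma) against control was 0.247. CCNE1, a cyclin that drives entry into S phase, had 6.86, 6.92 and 7.07 with TNF plus apigenin, 6.62, 6.58 and 6.62 with TNF, 6.32 and 6.69 with apigenin and 6.51, 6.47 and 6.51 in control after normalization. Deposited values of CCNE1 were 7.04, 7.08 and 6.87 with TNF plus apigenin, 6.71, 6.71 and 6.51 with TNF, 5.86 and 6.69 with apigenin and 6.66, 6.45 and 6.61 in control. The TNF plus apigenin arrays were highest on both sets of values, and apigenin 1 was lowest. CCNE1 was 0.45 ± 0.12 higher than in control after normalization (SE, adjusted p = 0.0462, limma), a call held in 2 of the 11 fits that left out 1 array. CCNE2, the related cyclin, was at 0.39 (adjusted p = 0.208). E2F1, a transcriptional activator, stood 0.41 above TNF after normalization (adjusted p = 0.149) and 0.18 above control (adjusted p = 0.485). E2F2, another activator, was at -0.47 against control (adjusted p = 0.0861), and -0.41 with TNF alone (adjusted p = 0.341). E2F8, an atypical family member that represses E2F targets, had 6.10, 6.48 and 5.79 with TNF plus apigenin, 6.34, 6.43 and 6.30 with TNF, 5.56 and 6.32 with apigenin and 6.57, 6.64 and 6.70 in control on deposited values. All its TNF plus apigenin, TNF and apigenin arrays lay below the 3 control arrays. Its changes from control were -0.51, -0.28 and -0.70 in these groups on deposited values (adjusted p = 0.251, 0.879 and 0.121), and -0.48, -0.23 and -0.38 after normalization (adjusted p = 0.0613, 0.602 and 0.217).

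After quantile normalization FEN1 passed in both comparisons of TNF plus apigenin with a group without apigenin. On deposited values no gene of its role passed (smallest adjusted p, limma: 0.24 against TNF and 0.307 against control). FEN1 encodes the nuclease that trims flaps from lagging-strand fragments before LIG1, a DNA ligase, seals them. FEN1 had 7.54, 7.57 and 7.46 with TNF plus apigenin, 6.81, 6.87 and 7.05 with TNF, 7.23 and 7.52 with apigenin and 7.01, 7.10 and 6.95 in control after normalization. Its deposited values were 7.70, 7.70 and 7.24 with TNF plus apigenin, 6.90, 7.02 and 6.94 with TNF, 6.77 and 7.53 with apigenin and 7.17, 7.11 and 7.04 in control. The TNF plus apigenin arrays lay above all TNF and control arrays on both sets of values, and apigenin 2 lay within their range. FEN1 was 0.61 ± 0.12 higher than with TNF (SE, adjusted p = 0.0205, limma), or 1.53-fold, and 0.50 ± 0.12 higher than in control (adjusted p = 0.03) after normalization. Of the 11 fits with 1 array left out, 6 kept the FEN1 call against TNF and 5 the call against control. LIG1 was at 0.11 against TNF and -0.18 against control (adjusted p = 0.774 and 0.505). UNG, which removes uracil from DNA, was at 0.10 and 0.21 (adjusted p = 0.774 and 0.39).

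Of the genes for chromatin behind the fork, CHAF1A passed against TNF and UHRF1 against control after quantile normalization, in opposite directions. On deposited values none passed (smallest adjusted p, limma: 0.192 against TNF and 0.121 against control). CHAF1A and CHAF1B are subunits of chromatin assembly factor, which places histones on new DNA. CHAF1A had 6.11, 6.24 and 6.17 with TNF plus apigenin, 5.30, 5.75 and 5.63 with TNF, 5.81 and 5.93 with apigenin and 5.77, 5.89 and 5.63 in control after normalization. Its deposited values were 6.30, 6.41 and 5.96 with TNF plus apigenin, 5.31, 5.88 and 5.55 with TNF, 5.37 and 5.92 with apigenin and 5.91, 5.82 and 5.73 in control. The TNF plus apigenin arrays were above all others on both sets of values, and TNF 1 was lowest of all. CHAF1A was 0.61 ± 0.14 higher than with TNF after normalization (SE, adjusted p = 0.0345, limma), held in 5 of the 11 fits, and CHAF1B was 0.66 ± 0.16 higher (adjusted p = 0.0549). CHAF1B was as high with apigenin alone, at 7.18 and 7.25 after normalization, against 6.72, 6.53 and 6.75 in control. SLBP, which binds the stem-loop of histone messenger RNA, was at 0.16 against TNF and 0.49 against control (adjusted p = 0.674 and 0.082).

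UHRF1, which brings the maintenance DNA methyltransferase to newly copied DNA, was the member with the lowest change from control in cells with both agents. It had 4.78, 4.79 and 5.00 with TNF plus apigenin, 5.52, 5.04 and 5.18 with TNF, 4.98 and 5.13 with apigenin and 5.45, 5.54 and 5.28 in control after normalization. Its deposited values were 4.95, 4.94 and 4.87 with TNF plus apigenin, 5.53, 5.13 and 5.12 with TNF, 4.63 and 5.11 with apigenin and 5.60, 5.46 and 5.40 in control. All TNF plus apigenin and apigenin arrays lay below all control arrays on both sets of values. After normalization UHRF1 fell by 0.56 from control (SE 0.15, adjusted p = 0.0386, limma), held in 4 of the 11 fits, and its change was -0.39 from TNF (adjusted p = 0.194). With apigenin alone the change was -0.37 (adjusted p = 0.238).

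DTL was the fork protection and S phase control gene that passed, after quantile normalization. On deposited values none passed (smallest adjusted p, limma: 0.197 against TNF and 0.16 against control). DTL is the substrate receptor of a ubiquitin ligase that marks CDT1 for destruction on replicating DNA. DTL had 8.56, 8.47 and 8.49 with TNF plus apigenin, 7.84, 7.79 and 7.95 with TNF, 8.09 and 8.38 with apigenin and 8.04, 7.81 and 8.14 in control after normalization. Its deposited values were 8.67, 8.54 and 8.30 with TNF plus apigenin, 7.93, 7.93 and 7.82 with TNF, 7.74 and 8.38 with apigenin and 8.18, 7.86 and 8.19 in control. After normalization the TNF plus apigenin arrays lay above all others, and on deposited values apigenin 2 at 8.38 was above TNF plus apigenin 3 at 8.30. DTL was 0.65 ± 0.13 higher than with TNF (SE, adjusted p = 0.0198, limma), or 1.57-fold, and 0.51 ± 0.13 higher than in control (adjusted p = 0.0335) after normalization, each held in 6 of the 11 fits. TIPIN, which stabilises stalled forks with its partner TIMELESS, was at 0.38 and 0.49 (adjusted p = 0.175 and 0.0512). CLSPN, an adaptor of the replication checkpoint, was at 0.04 and -0.04 (adjusted p = 0.925 and 0.885), with 95% intervals of -0.23 to 0.30 and -0.31 to 0.22.

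**Figure D3:**
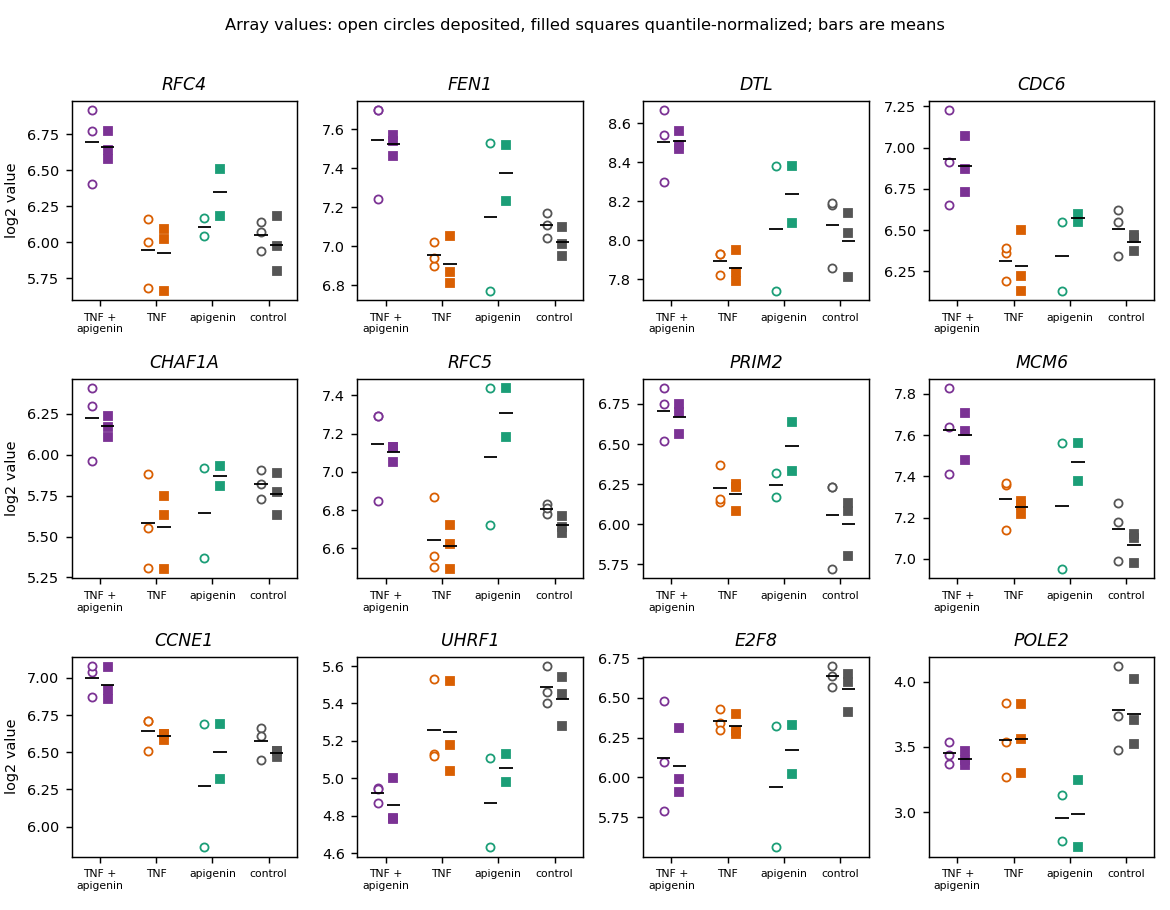
Log2 values of 12 genes on each array, by group from TNF plus apigenin to control, as deposited (open circles) and after quantile normalization (filled squares), with bars at the means. The TNF plus apigenin squares lie above all TNF and control squares for the first 9 genes, and below all control squares for UHRF1, E2F8 and POLE2.

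Changes of the members with apigenin were set side by side without and with TNF. These comparisons (apigenin over control, and both agents over TNF) share no array, and across the 50 members their log2 changes had a Pearson correlation of 0.8 and a Spearman correlation of 0.813 on deposited values, and 0.794 and 0.83 after normalization. Across all genes the Pearson correlation was 0.461 on deposited values and 0.487 after normalization. That set is unlike the members: a gene needed only 2 arrays at or above 2.53, while every member reached it on 11. The part of brightness in these correlations was not tested. Genes are not independent replicates, and all genes share the arrays and their scale, so these values describe the arrays. After normalization 29 members had positive changes in both comparisons and 10 had negative changes in both, and on deposited values the counts were 13 and 10. Of all genes, 46.2% rose with apigenin over control and 47.3% with both agents over TNF after normalization. On deposited values these shares were 27.7% and 52.4%. The share of all genes with the same sign in both was not computed. The changes with TNF, without and with apigenin, also share no array and had a Pearson correlation of 0.656 and a Spearman correlation of 0.55 across the members on deposited values (all genes: Pearson 0.355).

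**Figure D4:**
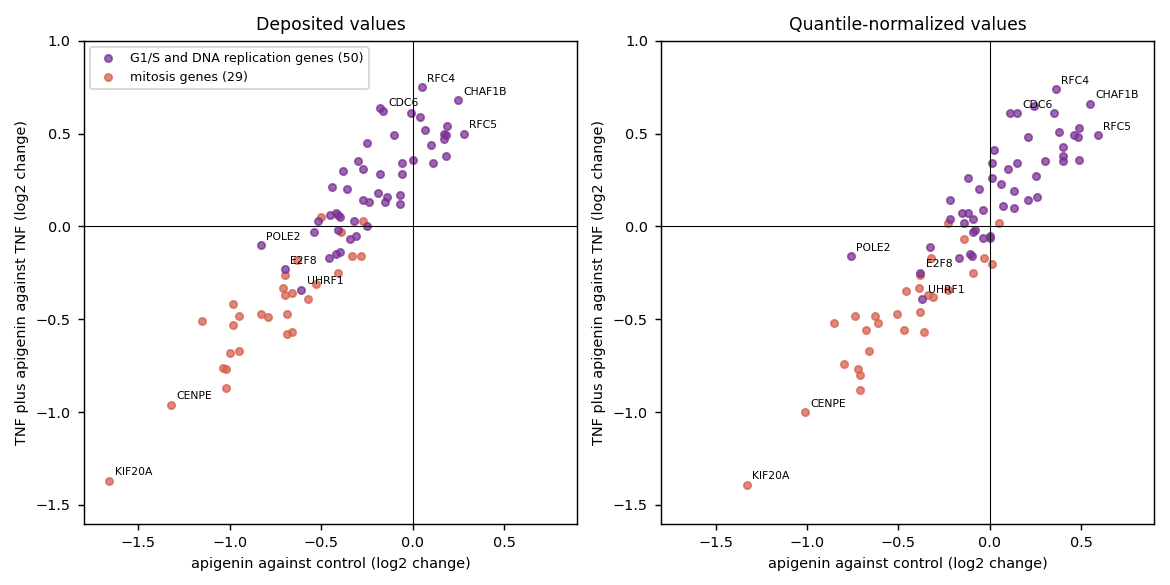
Each point is a gene, placed by its log2 change for apigenin against control (x) and for TNF plus apigenin against TNF (y), for the 50 replication genes (purple) and 29 mitosis genes (red), on deposited values and after quantile normalization. Replication genes run from UHRF1, E2F8 and POLE2 at the lower left to RFC4, CHAF1B and RFC5 at the upper right, and KIF20A is the lowest mitosis gene.

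Mitosis genes act later in the cycle. Of 29 tested, 12 fell with apigenin against control on deposited values (median -0.70) and 11 after normalization (median -0.46), where 3.44% and 2.84% of all genes were called lower and the all-gene medians were -0.18 and -0.03. For TNF plus apigenin against TNF, 3 fell on deposited values, KIF20A by 1.37, PLK1 by 0.87 and CCNB1 by 0.77, and 10 fell after normalization, with a median of -0.47 on both. Of all genes, 0.681% and 2.12% were called lower there, with medians of 0.02 and -0.02. Against control, 7 fell on deposited values and 14 after normalization, with a median of -0.50 on both (all genes: 1.78% and 4.38% called lower, median -0.02 on both). The difference between the medians of the replication and the mitosis genes was not tested. The proliferation marker MKI67 was at -0.43 for TNF plus apigenin against control and -0.57 for apigenin against control on deposited values (adjusted p = 0.309 and 0.173), and at -0.35 and -0.31 after normalization (adjusted p = 0.142 and 0.278).

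Other genes of replication and S phase were a list of 39, of which 38 were tested. Their median for TNF plus apigenin against TNF was 0.08 on deposited values and 0.06 after normalization (all genes: 0.02 and -0.02). After normalization RPA1, a subunit of the protein that coats single-stranded DNA, rose by 0.50 (adjusted p = 0.0337, limma) and ASF1A, a histone chaperone, fell by 0.68 (adjusted p = 0.0402). As deposited, neither passed, with RPA1 at 0.46 (adjusted p = 0.306) and ASF1A at -0.67 (adjusted p = 0.223). Of all genes, 1.1% were called higher and 2.12% lower in this comparison after normalization. Against control RPA1 rose by 0.45 and SUPT16H, of a histone chaperone that travels with the fork, by 0.58 (adjusted p = 0.0317 and 0.0232), and as deposited they were at 0.37 and 0.50 (adjusted p = 0.316 and 0.157). After normalization 3.41% of all genes were called higher against control. ASF1A also fell with apigenin alone, by 1.04 on deposited values and 0.73 after normalization (adjusted p = 0.0324 and 0.0449). Of all genes, 3.44% and 2.84% were called lower there. Of 23 cell cycle entry regulators tested, CCND1 was the only one called. Cyclin D1, its product, drives progress through G1 with its kinases. CCND1 rose with TNF plus apigenin against control by 0.91 on both sets of values (adjusted p = 0.0217 and 0.00161), and after normalization by 0.75 with apigenin against control (adjusted p = 0.0155) and 0.63 with TNF plus apigenin against TNF (adjusted p = 0.0187). As deposited, those last changes were 0.47 and 0.67 (adjusted p = 0.25 and 0.152). For both agents against control, 1.04% of all genes were called higher on deposited values and 3.41% after normalization. After normalization 0.922% were called higher with apigenin against control and 1.1% with both agents against TNF. The CDK inhibitor gene CDKN1A was at 0.54 for TNF plus apigenin against TNF on deposited values (adjusted p = 0.218) and 0.47 after normalization (adjusted p = 0.068), and MYC did not pass in any of the 3 comparisons.

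**Figure D5:**
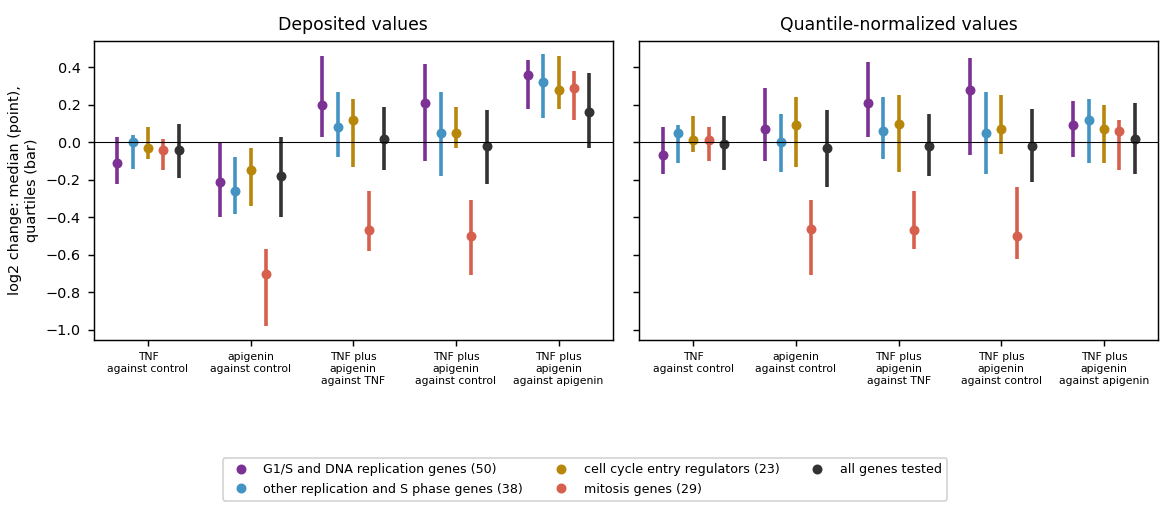
Median log2 change (points) with quartiles (bars) of the 50 replication genes, 38 other replication and S phase genes, 23 cell cycle entry regulators, 29 mitosis genes and all genes, for the 5 group comparisons on deposited values and after quantile normalization. The replication genes lie at 0.21 and 0.28 after normalization for TNF plus apigenin against TNF and against control, while mitosis genes lie at -0.47 and -0.50.

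Members with and without the E2F-type letters printed above were set side by side. For TNF plus apigenin against TNF, the 25 with a match had a median change of 0.14 after normalization (range -0.39 to 0.65) and the 18 without had 0.40 (range -0.17 to 0.74). For apigenin against control these medians were 0.02 and 0.28, and for TNF against control -0.08 and -0.06. As deposited, the medians with and without a match were 0.13 and 0.41 for both agents against TNF, -0.25 and -0.04 for apigenin against control, and -0.12 and -0.09 for TNF against control. RFC4, RFC5, FEN1, CHAF1A, PRIM2 and CCNE1 held no match in their windows, while CDC6, DTL, MCM6 and UHRF1 did. Of 26 mitosis genes with a window 1 (3.85%) held such letters, and of 32 other replication genes 9 (28.1%) did. These medians were not tested.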

How the data were processed

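Expression of 11 arrays was read from the deposited log2 values of 53617 probe sets, which the authors made, per the submitters' processing notes, in Affymetrix Expression Console; the sources used here do not state the normalization between arrays. The log2 base was inferred from the range, 0.38 to 12.31. Probe sets with 1 gene symbol were kept (23871 of 25713 listed; 22569 matched RefSeq GRCh38.p14 by gene number, used for names, and 90 symbols were updated), the brightest for each of the 632 genes with several. Genes with at least 2 arrays at or above 2.53, the median probe set mean, were tested: 15865 on deposited values and 15832 after quantile normalization, all 50 members on both. limma 3.58.1 in R 4.3.3 fitted 1 mean per group (7 residual degrees of freedom); two-sided p-values were adjusted by Benjamini-Hochberg over all genes and called under 0.05. The pipeline was tested on simulated data. Values by array are given for members called on either set of values, and the 5 highest and 5 lowest changes for each comparison. Members and lists were chosen with earlier results of these data known. Replicate numbers were not used to pair the arrays in this fit. Of 15 same-numbered pairs, 4 correlated above 0.1 (range -0.24 to 0.28). Of the 11 arrays, 6 correlated best with their own number, so whether the numbers mark pairs was not settled. The number of arrays limits the precision.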

Additional observations from a re-analysis of the deposited data

How the results depend on the processing

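The arrays, 2 to 3 a group, limit what could be called. Under a median shift, no filter, a stricter filter and the mean of probe sets, 0 members were called on deposited values and each median stayed within 1 SD between arrays (0.17). At an unadjusted p under 0.05, the median shift gave 17 members higher against apigenin and 16 for both agents against control, where 11 were reported for each. It gave 15 for both agents against TNF (14 reported) and 11 for the interaction (9 reported). No filter gave 2 lower with TNF (1 reported) and 8 lower with apigenin (7 reported). For both agents, no filter gave 15 higher against TNF, 12 against control and 12 against apigenin, and 10 for the interaction. The stricter filter gave 8 for the interaction. The share of all genes at this threshold was not computed for these settings. Quantile normalization turned the counts of called members from 0 to 1 (apigenin against control), 6 (both agents against TNF) and 7 (both agents against control), and put the medians at 0.07 (apigenin against control), 0.09 (TNF plus apigenin against apigenin) and 0.12 (interaction). It turned the sign of LIG1 (-0.24), RFC5 (-0.21) and UHRF1 (-0.19) against apigenin, and of the interaction of MCM3 (-0.07), MCM6 (-0.05), ORC6 (-0.13), RFC5 (-0.10) and SLBP (-0.10). Quantile normalization without apigenin 1 gave 6 and 8 calls, medians of 0.11, 0.05 and 0.12, LIG1 -0.16, RFC5 -0.34 and UHRF1 -0.27 against apigenin, and interactions of -0.02 (MCM3), -0.14 (MCM6), -0.23 (ORC6), -0.22 (RFC5) and -0.13 (SLBP). Array weights on deposited values called 4 members for TNF plus apigenin against TNF, where 2.46% of all genes were called. They called 5 against control, where 7.54% of all genes were called. Weights after quantile normalization, added after seeing the data, called 0 for apigenin against control, 12 and 20. Those last counts are given without the share over all genes, so they are no result about the members. On deposited values, weights also raised that share, from 1.07% to 2.46% against TNF and from 2.82% to 7.54% against control. Weights on deposited values put CDT1 at 0.04 against apigenin. The cause of these differences was not tested.

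Leaving out 1 array at a time gave 0 to 2 calls on deposited values (apigenin against control, and both agents against apigenin). After quantile normalization, an alternative added after seeing the data, it gave 0 to 2 for apigenin against control, 0 to 6 for both agents against TNF and 0 to 8 for both agents against control. The share of all genes called moved as well, for both agents against control from 7.79% with all arrays to 3.85% without control 1. Deposited medians were -0.38 to 0.04 (apigenin against control), 0.10 to 0.54 (both agents against apigenin) and 0.18 to 0.59 (interaction). Signs turned within these ranges: with TNF against control CCNE2 -0.04 to 0.28 and PRIM2 -0.01 to 0.25; with apigenin against control CHAF1B -0.02 to 0.52, ORC6 -0.16 to 0.52 and RFC5 -0.08 to 0.64; with TNF plus apigenin against TNF POLA2 -0.25 to 0; against apigenin CDT1 -0.26 to 0.18, E2F2 -0.40 to 0.04, LIG1 -0.10 to 0.19, RFC5 -0.30 to 0.42 and UHRF1 -0.19 to 0.29; for the interaction MCM6 -0.07 to 0.54, ORC6 -0.14 to 0.54, RFC5 -0.14 to 0.58 and SLBP -0.03 to 0.49. The replicate number as a block called 0 members on deposited values, and 1, 5 and 8 after quantile normalization where 1, 6 and 7 were called without it; 6 of 11 arrays correlated best with their own number, a hint from the data only. It put CDT1 at 0.12 against apigenin.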
